A study of Mus musculus with 48 samples.

Results

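The 44 genes described here encode subunits of the oxidative phosphorylation system: 19 of complex I, 4 of complex II, 6 of complex III, the electron carrier cytochrome c, 7 of complex IV and 7 of complex V. A gene entered through the probe sets that the platform annotation gives that symbol alone, and was represented by the probe set that was brightest on average over the 48 arrays. Under this rule 42 of the 44 symbols were found, Cox7b of complex IV and Atp5f1 of complex V not being in the annotation under those symbols, and all 42 lay above the limit set for dim genes, a mean log2 signal of 3.96. They are 42 of 12823 genes tested and of 17097 genes with a probe set of their own. Ndufa4, named for complex I, was counted with complex IV, of which it is now regarded as a subunit.

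RNA came from epidermal stem cells (EpSCs) of wild-type female C57B6/J mice, young (8 weeks) or aged (102 to 116 weeks). Cells were collected at 6 times of day from ZT0 to ZT20, each 4 h after the last, where ZT (zeitgeber time) counts hours of the light cycle. Each age and time was represented by 4 mice with 1 array each, so that each age had 24 arrays, and the labels give every mouse the same genotype and no treatment. The design asks how daily expression and its level differ between young and aged cells.

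Oxidative phosphorylation passes electrons from NADH and succinate through complexes I to IV to oxygen, pumps protons across the inner mitochondrial membrane, and lets complex V use the gradient to make ATP. Most subunits are encoded in the nucleus and must be matched in amount to each other and to the catalytic subunits of the mitochondrial genome. In the epidermis, stem cells of the basal layer respire and also rely on glycolysis, and the balance of the pathways has been linked to the time of day at which the cells replicate their DNA.

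Windows of 250 bases before the start site, from RefSeq on build GRCm38.p6, were at hand for 32 of the 44 genes. They were searched on both strands for motifs of factors that act on respiratory or rhythmic genes: the NRF1 core CGCATGCG, the ETS core CCGGAAGN (bound by GABP), the cyclic AMP response element TGACGTCA, the E-box CACGTG and the D-box TTANGTAA. No motif in this set contains another of the set. Those at hand for the subunits that passed a test below are shown because they let a reader see what precedes these genes, with that of Cycs (cytochrome c), which holds motifs of 2 kinds. Capitals mark the motif matches.
Ndufb7, chr8:83566508-83566757, plus strand: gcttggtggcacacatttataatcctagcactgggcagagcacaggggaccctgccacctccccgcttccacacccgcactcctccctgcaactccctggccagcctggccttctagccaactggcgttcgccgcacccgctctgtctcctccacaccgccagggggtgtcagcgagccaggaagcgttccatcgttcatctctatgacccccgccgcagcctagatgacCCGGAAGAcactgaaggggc
Ndufc1, chr3:51408956-51409205, minus strand: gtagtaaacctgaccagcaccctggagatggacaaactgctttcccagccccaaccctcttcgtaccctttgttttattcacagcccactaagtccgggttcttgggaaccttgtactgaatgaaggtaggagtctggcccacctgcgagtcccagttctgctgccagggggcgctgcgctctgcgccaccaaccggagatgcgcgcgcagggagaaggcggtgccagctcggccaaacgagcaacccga
Ndufa1, chrX:37191239-37191488, minus strand: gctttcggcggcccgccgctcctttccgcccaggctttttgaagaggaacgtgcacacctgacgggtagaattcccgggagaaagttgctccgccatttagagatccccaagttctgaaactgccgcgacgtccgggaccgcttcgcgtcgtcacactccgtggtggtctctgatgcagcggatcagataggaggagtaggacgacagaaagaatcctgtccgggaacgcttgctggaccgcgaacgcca
Ndufb8, chr19:44555443-44555692, minus strand: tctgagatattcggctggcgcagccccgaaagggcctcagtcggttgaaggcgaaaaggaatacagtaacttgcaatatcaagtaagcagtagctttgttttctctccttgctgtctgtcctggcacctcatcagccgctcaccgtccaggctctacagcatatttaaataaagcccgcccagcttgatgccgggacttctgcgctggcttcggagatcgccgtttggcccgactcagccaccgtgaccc
Sdhb, chr4:140961021-140961270, plus strand: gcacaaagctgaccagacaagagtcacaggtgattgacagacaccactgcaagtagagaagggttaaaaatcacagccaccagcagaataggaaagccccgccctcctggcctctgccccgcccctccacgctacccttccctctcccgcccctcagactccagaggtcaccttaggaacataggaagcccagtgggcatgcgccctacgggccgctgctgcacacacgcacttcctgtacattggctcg
Cycs, chr6:50566570-50566819, minus strand: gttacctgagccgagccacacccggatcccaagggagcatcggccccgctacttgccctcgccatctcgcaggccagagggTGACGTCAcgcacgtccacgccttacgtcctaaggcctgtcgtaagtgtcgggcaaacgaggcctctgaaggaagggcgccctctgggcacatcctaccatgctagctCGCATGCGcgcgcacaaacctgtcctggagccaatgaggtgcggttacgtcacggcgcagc

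The match in the Ndufb7 window is an ETS core that lies 20 to 13 bases before the start site. In the Cycs window the cyclic AMP response element lies 169 to 162 and the NRF1 core 61 to 54 bases before the start. The other 4 windows printed hold none of these letters. Over the 32 genes, 3 windows held the NRF1 core (Cycs, Ndufa8 and Atp5j; 9.38%, against 1.75% of 27025 genes with windows of that length) and 4 the ETS core (Ndufb7, Ndufs3, Sdhd and Atp5j; 12.5% against 7.79%). The cyclic AMP response element was in 3 (Cycs, Uqcrfs1 and Ndufa10; 9.38% against 1.77%), the D-box in 2 (Atp5o and Cox7b; 6.25% against 2.44%) and the E-box in 1 (Ndufv1; 3.13% against 6.86%). These are matches of letters in a window, without a test.

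All values are log2 signals of single probe sets as deposited, so the level of a gene is compared only with its own level in other mice. Array medians over all probe sets lay between 4.78 and 5.04, the correlation of any pair of arrays was at least 0.963, and the mean signal of all genes ran from 6.83 to 7.01. All 10 markers of basal keratinocytes were above the dim limit, with a mean log2 signal of 11.40 to 11.58 in young and 11.34 to 11.64 in aged arrays. Below it were Cd34 and Lgr5 of the hair follicle bulge, 4 of 8 fibroblast markers (Col3a1, Lum, Pdgfra and Dpt) and 5 of 7 markers of endothelium. The mean of 5 T cell markers was 5.01 to 5.66 in young and 5.18 to 6.34 in aged arrays. In the test of aged against young, which 18.6% of all genes passed (limma, adjusted p under 0.05), Cd3e, Cd3g and Thy1 of the 5 T cell markers were higher in aged. Krt14 and Itgb4 were higher and Krt15 lower among 10 basal markers, Lor was lower among 8 suprabasal markers, Tcf7l1 was higher and Lhx2 and Postn lower among 6 bulge markers, and Lpl was higher of 2 adipocyte markers. These genes were named after their values were seen, and their part in the results was not tested. In bulk RNA, fewer cells of a type and less RNA per cell cannot be told apart.

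Between aged and young cells, transcripts of the respiratory chain and ATP synthase differed little. Of the 42 subunits, 1 passed the test for a difference in level, Ndufb7 of complex I, which was higher in aged cells, and none was lower; over all genes tested 18.6% passed, 9.89% higher and 8.73% lower (limma, Benjamini-Hochberg adjusted p under 0.05). For 40 of the 42, all but Ndufb7 and Ndufa4, the whole 95% confidence interval lay within 1.2 times either way, as it did for 70.9% of all genes. The median difference was −0.03 log2 against −0.002 for all genes, and 27 estimates were below 0 and 15 above, where 50.7% of all genes were below. Without adjustment 7 subunits (16.7%) had p under 0.05, against 30.4% of all genes.

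**Figure D1:**
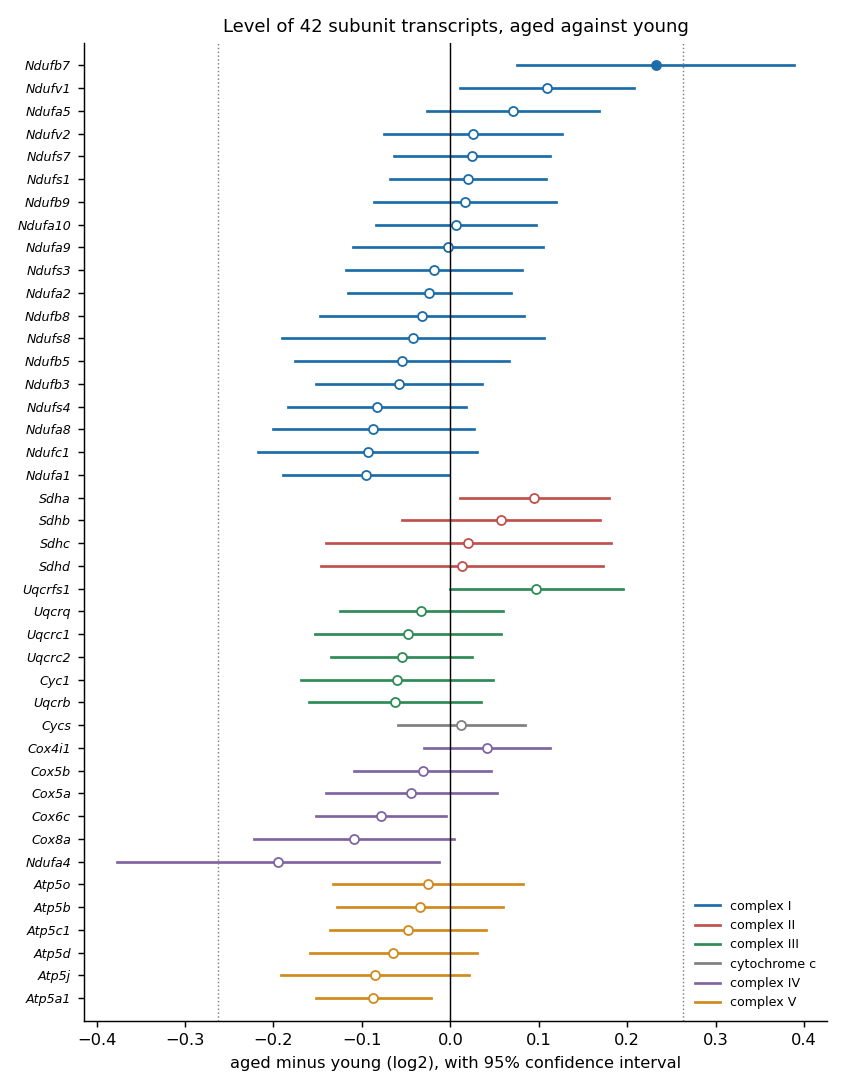
Difference in log2 signal, aged minus young, for 42 subunit transcripts grouped by complex. Points are limma estimates from 24 mice of each age, bars their 95% confidence intervals, the filled point passed the adjusted threshold, and dotted lines mark 1.2 times either way. Ndufb7 alone is filled, all 6 complex V estimates lie below 0 and all 4 complex II estimates above 0.

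Ndufb7 is an accessory subunit in the membrane arm of complex I. Its signal ran from 8.58 over a median of 9.08 to 9.63 in the 24 young mice and from 8.82 over 9.37 to 9.75 in the 24 aged mice. The ages overlapped broadly: 20 of 24 aged mice were above the young median, 3 were above every young mouse, and 3 young mice were below every aged one. The difference was 0.23 ± 0.08 log2 (SE), a fold of 1.17 with a 95% interval of 1.05 to 1.31 (adjusted p = 0.0294, limma). A second probe set of Ndufb7 differed by 0.15 ± 0.08 (SE; unadjusted p = 0.0771, limma). Ndufb7 passed under 56 of 58 alternatives that refitted the level, and not with arrays centred on their median or with all probe sets of a gene averaged, where the adjusted p was at most 0.0626 (limma). It also lay below the minimum change of 1.2 times tried as a further alternative.

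Of the rest of complex I, the 6 core subunits measured ran from −0.04 (Ndufs8, an iron-sulfur subunit) to 0.11 (Ndufv1, which binds NADH). Ndufv1, outside the naming rule, had an unadjusted p of 0.0307 and an adjusted p of 0.117 (limma). A second, dimmer probe set of Ndufv1 differed by −0.05 ± 0.05 (SE, unadjusted p = 0.308, limma). The 12 other accessory subunits ran from −0.10, for Ndufa1, a small subunit of the membrane arm (adjusted p = 0.157, limma), to 0.07. Over the 19 genes, 11 estimates were below 0 and 8 above, so the complex showed no common direction.

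All 4 complex II estimates were above 0, at 0.01 to 0.09. Sdha, the flavoprotein that oxidises succinate, was the largest: young mice ran from 9.58 over 9.81 to 10.03 and aged mice from 9.65 over 9.89 to 10.29, with 16 of 24 aged mice above the young median. The difference of 0.09 ± 0.04 (SE) did not pass (adjusted p = 0.109, limma). A second, dimmer probe set of Sdha differed by 0.20 ± 0.05 (SE; unadjusted p = 0.000308, limma).

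In complex III, 5 of 6 estimates were below 0. The exception was Uqcrfs1, the Rieske iron-sulfur protein, at 8.58, 8.81 and 9.19 (lowest, median and highest) in young and 8.68, 8.94 and 9.27 in aged mice, a difference of 0.10 ± 0.05 (SE; adjusted p = 0.165, limma). Cycs differed by 0.01 ± 0.04 (SE; adjusted p = 0.854, limma), with a 95% interval of 0.960 to 1.06 as a fold. All 24 aged mice lay within the young range for Cycs, and 2 aged mice were above every young one for Uqcrfs1.

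In complex IV, 5 of 6 estimates were below 0. Ndufa4 had the largest difference of the complex and the widest interval of the 42 subunits: young mice ran from 9.35 over 9.98 to 10.41 and aged mice from 9.24 over 9.74 to 10.27, with 19 of 24 aged mice below the young median. Its difference of −0.19 ± 0.09 (SE), a fold of 0.874 with a 95% interval of 0.770 to 0.991, did not pass (adjusted p = 0.132, limma). Cox6c, a small structural subunit, had 22 of 24 aged mice below the young median, with a difference of −0.08 ± 0.04 (SE; adjusted p = 0.131, limma). A second probe set of Cox6c, with a mean of 10.73, differed by −0.01 ± 0.03 (SE, unadjusted p = 0.677, limma).

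All 6 complex V estimates were below 0, from −0.09 to −0.03. Atp5a1 encodes the alpha subunit of the catalytic head, and its signal ran from 10.91 over 11.12 to 11.33 in young and from 10.86 over 11.02 to 11.17 in aged mice. Of the aged mice 22 of 24 were below the young median, and 8 young mice were above every aged mouse. The difference of −0.09 ± 0.03 (SE), a fold of 0.941 with a 95% interval of 0.8997 to 0.985, missed the threshold (adjusted p = 0.0516, limma). Atp5a1 passed as lower under 21 of 58 alternatives that refitted the level. Of the processing settings these were time as a factor (adjusted p = 0.0467, limma), no filter on dim genes, and the dimmest 50% left out. The others were probe sets averaged, arrays centred on their median, array weights, and trended and robust variances. It passed as well when any 1 of 14 arrays was left out, so that 2 subunits passed: young mouse 2 at ZT0, 3 at ZT4, 3 or 4 at ZT8, 3 at ZT16, 2 or 3 at ZT20, and aged mouse 2 at ZT0, 2 or 4 at ZT4, 2 at ZT8, 1 at ZT12, 2 at ZT16 or 4 at ZT20. Atp5pb, which RefSeq lists as the current symbol of Atp5f1 and which the rule did not take, differed by 0.02 ± 0.05 (SE; adjusted p = 0.802, limma).

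The count of estimates below 0 depended on the scaling. Centring each array on its median, which shifts all genes of an array alike, moved the median difference of all genes from −0.002 to −0.03 and that of the 42 subunits from −0.03 to −0.06, and put 33 subunits (78.6%, against 64.3% as deposited) below 0, with Atp5a1 lower and Ndufb7 not passing. Cyclic loess between arrays gave 26 below 0, with medians of −0.02 for the subunits and −0.005 for all genes. The median subunit was below the median gene under each of the 3 scalings.

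Over the day in young cells, most subunits were lowest at ZT16, and ZT4 was the most common time of the highest mean. The lowest of the 6 time means fell at ZT16 for 31 of 42 subunits, against 23.8% of all genes, and the highest at ZT4 for 26, against 29.5%. The median span from the lowest to the highest time mean was 0.33 log2, the same as the 0.33 of all genes. In the F test over the 6 times 5 of 42 passed, Ndufc1, Sdhb, Sdhc, Ndufa1 and Ndufb8, where 17.5% of all genes did (limma); unadjusted, 20 of 42 (47.6%) had p under 0.05, against 32.4% of all genes. In 18 of 42 subunits every young mouse at ZT4 was above every young mouse at ZT16, against 13.9% of all genes, a pair of times chosen after the values were seen.

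**Figure D2:**
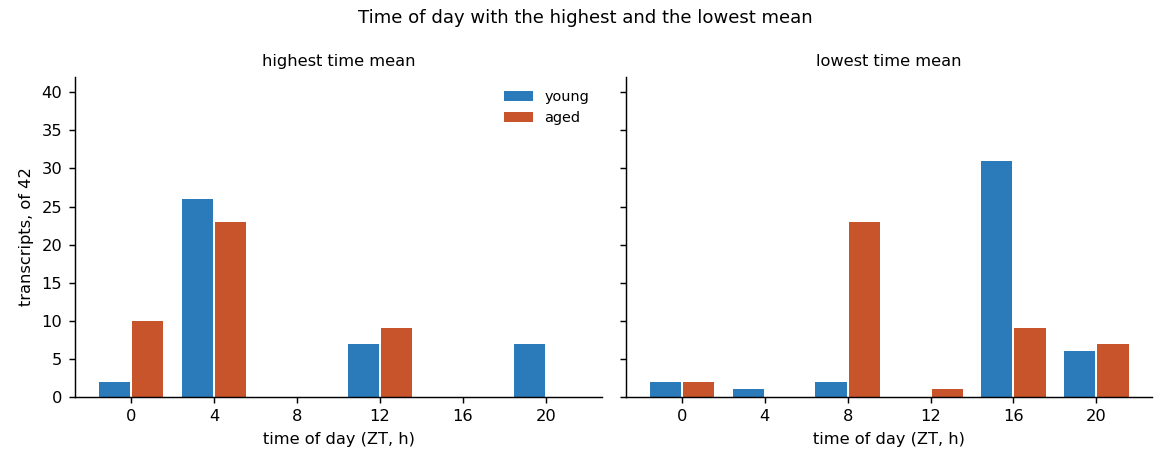
Number of the 42 subunit transcripts whose mean of 4 mice was highest (left) or lowest (right) at each time of day, in young and aged cells. In young cells 31 transcripts were lowest at ZT16, and in aged cells 23 were lowest at ZT8.

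Ndufc1, a small accessory subunit of the membrane arm of complex I, had the smallest p. In the young mice labelled 1 to 4 its log2 signal was 10.69, 10.41, 11.23 and 11.06 at ZT0, 11.10, 10.83, 11.21 and 11.02 at ZT4, and 10.57, 10.78, 10.78 and 10.89 at ZT8. It was 11.07, 10.99, 10.56 and 10.85 at ZT12, 10.59, 10.35, 10.25 and 10.34 at ZT16, and 10.80, 11.16, 10.89 and 11.004 at ZT20. All 4 mice at ZT16 were below all mice at ZT4 and ZT20, whereas the ZT0 mice spread over nearly the whole range. The span was 0.66 log2, 1.58-fold (adjusted p = 0.00258, limma). In aged mice the means ran from 10.58 at ZT16 to 10.86 at ZT0, a span of 0.27 log2 (adjusted p = 0.483, limma).

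Ndufa1 stood at 11.40, 11.36, 11.73 and 11.55 in young mice at ZT4 and at 11.19, 11.16, 10.99 and 10.97 at ZT16. The ZT16 mice were also below all mice at ZT12 and ZT20, and the span of the time means was 0.43 log2 or 1.35-fold (adjusted p = 0.0275, limma). Ndufb8, an accessory subunit of the membrane arm, stood at 10.73, 10.48, 10.70 and 10.48 at ZT4 and at 10.26, 10.01, 9.93 and 10.09 at ZT16, without overlap. Its span was 0.53 log2 or 1.44-fold (adjusted p = 0.0289, limma). In aged mice neither passed, with spans of 0.15 and 0.27 log2 and adjusted p of 0.890 and 0.468 (limma). Over complex I, 15 of 19 subunits were lowest at ZT16 and 13 highest at ZT4 in young cells, and 10 had an unadjusted p under 0.05; Ndufb7 was lowest at ZT16 too (adjusted p = 0.0768, limma).

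Complex II had the largest median span of the complexes in young cells, 0.53 log2. Sdhb, the iron-sulfur subunit, was 10.10, 9.56, 9.87 and 9.97 at ZT4 and 9.33, 9.53, 9.25 and 9.21 at ZT16, and Sdhc, a membrane anchor that helps bind ubiquinone, was 9.06, 8.48, 8.78 and 8.76 at ZT4 and 8.08, 8.33, 8.01 and 7.86 at ZT16. In both the ZT16 mice lay below every mouse at ZT4 and ZT20. The span was 0.54 log2 or 1.46-fold for Sdhb (adjusted p = 0.0106, limma) and 0.70 log2 or 1.63-fold for Sdhc (adjusted p = 0.0230, limma). In each of the 4 subunits every ZT4 mouse was above every ZT16 mouse. In aged mice the spans were 0.27 log2 for Sdhb and 0.40 for Sdhc, with adjusted p of 0.222 and 0.295 (limma).

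**Figure D3:**
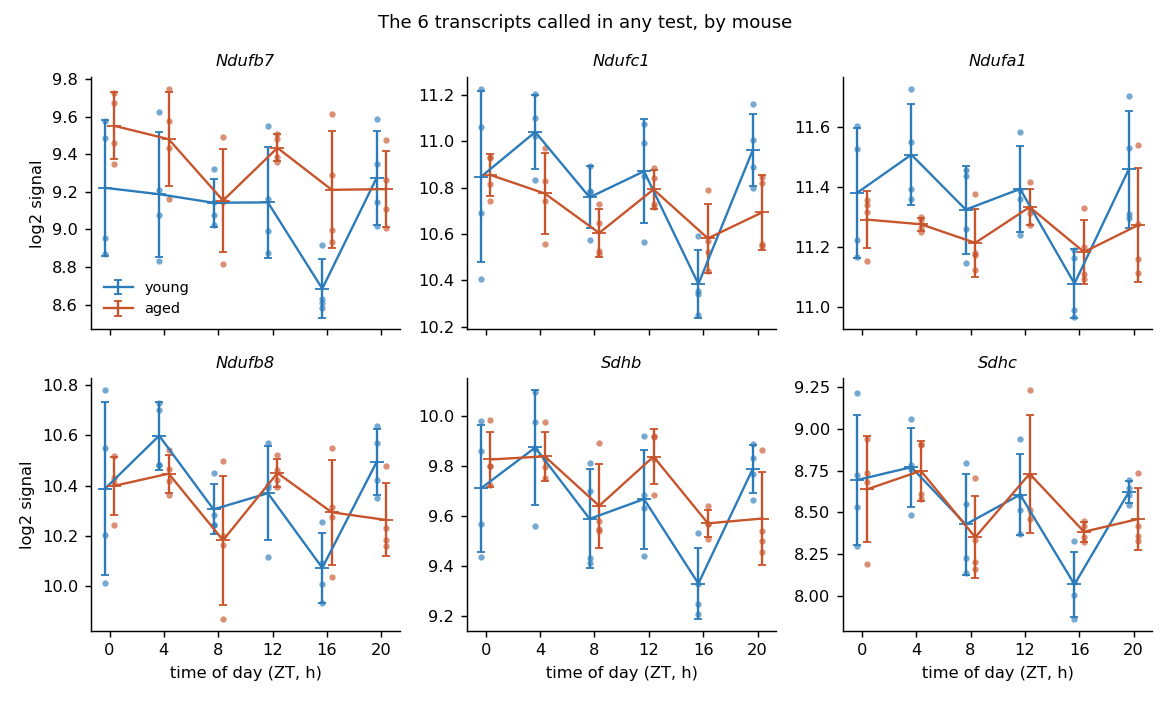
Log2 signal of the 6 transcripts that passed a test of level (Ndufb7) or of the course in young cells (the other 5), by time of day. Points are single mice, lines join the means of 4 mice and bars are SD; in young cells the ZT16 mean is the lowest in each panel.

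No subunit of complexes III, IV or V passed the course test in young cells, and Cycs did not either. In complex III 4 of 6 were lowest at ZT16, with a median span of 0.33 log2; in complex IV 4 of 6, with 0.31; and in complex V 4 of 6, with 0.25. Atp5j, a coupling subunit of the stalk, came closest (adjusted p = 0.0549, limma). Uqcrfs1 was among the 6 subunits with the lowest mean at ZT20, where it stood at 8.70, against 8.91 at ZT16. Atp5a1 was lowest at ZT8 and highest at ZT12, with 11.32, 11.20, 11.15 and 11.33 in the 4 mice.

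Within times, many young mice had nearly all subunits above or below the mean of their group, and fewer aged mice did. With each gene centred on its own mean over the 48 arrays, the average of the 42 was −0.11, −0.25, 0.33 and 0.13 log2 in the 4 young mice at ZT0, and mouse 3 was above the group mean in all 42 genes and mouse 2 in 0. In the 4 aged mice at ZT0 the number above was 25, 20, 16 and 26. In young mice the average of the 42 was 0.24, 0.001, 0.05 and 0.16 at ZT4 and −0.08, −0.09, −0.28 and −0.21 at ZT16. The young ZT16 mice were thus all below the young ZT4 mice, whereas the young ZT0 mice spanned more than the difference of the times. The mean signal of all genes moved too in young mice, from 6.85 in mouse 2 to 7.01 in mouse 3 at ZT0. It was 6.90 to 6.998 in the young ZT4 mice and 6.87 to 6.90 in the young ZT16 mice. In young cells the means of suprabasal markers (8.48 at ZT16, 8.58 to 8.69 at other times) and of T cell markers (5.13, against 5.30 to 5.46) were lowest at ZT16 as well, whereas that of basal keratinocyte markers was 11.52 there and 11.44 to 11.53 at other times. Taken singly, 3 of 8 suprabasal and 1 of 5 T cell markers were lowest at ZT16, against 23.8% of all genes. The means of fibroblast (4.23) and red blood cell (5.37) markers were lowest there too, and those of the other cell types looked at were not. The part of these in the course was not tested.

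**Figure D4:**
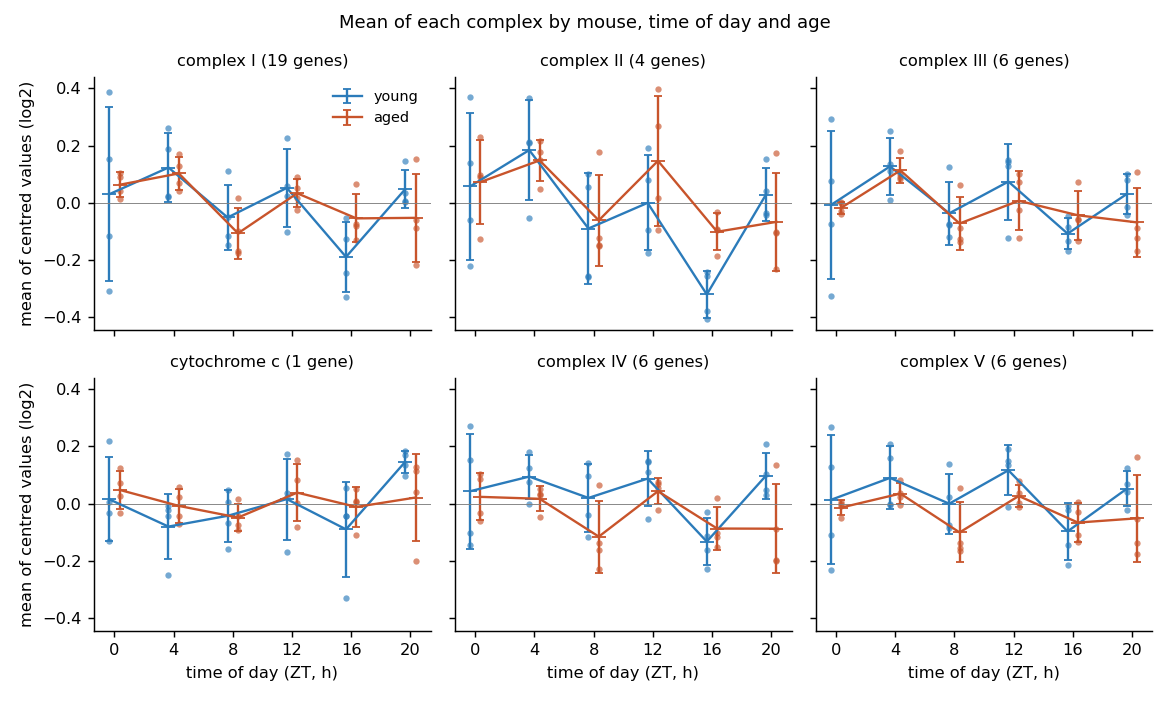
Mean of the subunits of each complex by time of day, each gene being centred on its mean over 48 arrays. Points are single mice, lines join the means of 4 mice, bars are SD; the young means at ZT16 are the lowest of the 6 times in each panel, and for complexes I to V the young mice at ZT0 spread most.

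The number of subunits that passed in young cells depended on single arrays. It was 15 without young mouse 2 at ZT0, when 22.5% of all genes passed. At that time it was 12 without mouse 3 (18.1% of all genes) and 8 without mouse 1 (17.4%). It was 9 without mouse 2 at ZT8 (18.8%) or mouse 1 at ZT16 (19.1%), and 8 without mouse 3 at ZT12 (17.8%). It was 3 without mouse 3 at ZT4 (14.4%), 2 without mouse 3 at ZT16 (13.7%) and 1, Ndufc1, without mouse 4 at ZT16, when 13.4% of all genes passed. With limma array weights, which gave both of the outlying ZT0 arrays low weight, it was 22, and 37.9% of all genes passed. With the 4 arrays of lowest weight left out, both of these ZT0 arrays among them, it was 5, and 16% of all genes passed. The count of subunits lowest at ZT16 was 32 with arrays centred on the median (26.8% of all genes). It was 30 with cyclic loess (23.5%) and 29 without the 4 arrays of lowest weight (22.9%). In the same order, the count of subunits highest at ZT4 was 24 (28.0% of all genes), 23 (25.1%) and 19 (24.6%).

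In aged cells the spans were smaller for most subunits and the most common low point was ZT8. The highest time mean fell at ZT4 for 23 subunits (26.5% of all genes). With arrays centred on the median it did for 27 (33.2%), and with cyclic loess for 16 (23.5%). The lowest time mean fell at ZT8 for 23 (13.1%), and 9 were lowest at ZT16 (15.8%). In 5 of 42 every aged mouse at ZT4 was above every aged mouse at ZT16 (6.75%). The median span was 0.21 log2, against 0.29 for all genes, and 35 of 42 subunits had the larger span in young cells, against 60.2% of all genes. None passed the F test over the 6 times (limma; 2 with an unadjusted p under 0.05, smallest adjusted p = 0.205), where 8.36% of all genes passed. With array weights 6 passed (28.1% of all genes), and 1, Ndufa10, did when probe sets were averaged or the 4 arrays of lowest weight were left out. By complex, 14 of 19 subunits of complex I, 1 of 4 of complex II, 2 of 6 of complex III, 2 of 6 of complex IV and 3 of 6 of complex V were lowest at ZT8. Ndufa4 had the largest span, 0.51 log2, with 9.30, 9.27, 9.24 and 9.93 in the 4 aged mice at ZT8 and 9.54, 10.13, 10.05 and 10.06 at ZT12; mouse 4 at ZT8 lay within the range of the ZT12 mice.

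The difference between the courses did not pass for any subunit (limma; 0 of 42 at an unadjusted p under 0.05, smallest adjusted p = 0.449), where 2.59% of all genes passed, nor did it under any alternative run. A course that passed in young and not in aged cells is therefore not shown to differ between them. At single times none of 252 comparisons of aged with young passed (limma; smallest adjusted p = 0.0788; 11 with an unadjusted p under 0.05), where the share of all genes that passed was 5.19% at ZT0, 8.21% at ZT4, 2.14% at ZT8, 1.31% at ZT12, 3.3% at ZT16 and 1.36% at ZT20, and 1 to 3 did with array weights, averaged probe sets or 4 arrays left out. The signs of the 42 estimates differed by time. At ZT0 21 were below 0 (54.4% of all genes), at ZT4 28 (53.5%), at ZT8 32 (41.9%) and at ZT12 28 (50.6%). At ZT16 38 of 42 estimates were above 0 (51.9% of all genes), with a median of 0.10 log2, and at ZT20 37 of 42 were below 0 (53.8%), with a median of −0.11. Ndufb7 had the largest difference at ZT16: 9.29, 8.94, 8.999 and 9.62 in aged against 8.92, 8.63, 8.61 and 8.58 in young mice. All aged mice were above all young mice there, by 0.53 ± 0.17 (SE; adjusted p = 0.0788, limma).

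A cosine of 24 h was fitted as well. None passed in young cells (limma; 8 of 42 with an unadjusted p under 0.05, smallest adjusted p = 0.120), where 6.27% of all genes did, and none in aged cells (0 unadjusted, smallest adjusted p = 0.692), where 1.36% did. The difference of the fitted rhythms passed for 0 subunits (0 unadjusted, smallest adjusted p = 0.770) and 0.00% of all genes. With array weights 12 passed in young cells (18.1% of all genes). Without young mouse 2 at ZT0 2 passed, Ndufb8 and Ndufc1 (9.26% of all genes), and without young mouse 2 at ZT12 Ndufb3 and Sdhb (7.78%). The fitted peak lay from ZT0 to ZT6 in 32 of 42 subunits in young cells (37.9% of all genes) and in 30 in aged cells (34.8%), and the amplitude of the fit was larger at the young age for 36 (59.8%).

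The fitted amplitudes, the distance from the mean to the peak, ran from 0.02 to 0.23 log2 in young and from 0.01 to 0.12 in aged cells. Sdhc had the largest in young cells, 0.23 ± 0.08 (SE), or 1.38-fold from trough to peak, with a peak at ZT2.62. In complex I the largest were those of Ndufc1 in young cells, 0.19 ± 0.06 (SE), and of Ndufs8 in aged cells, 0.12 ± 0.07 (SE). Uqcrc1, a core protein of complex III, reached 0.12 ± 0.05 (SE) in young and 0.09 ± 0.05 in aged cells. Smaller still were Cox6c at 0.08 ± 0.04 (SE) and Atp5o, which joins the stalk of ATP synthase to its head, at 0.10 ± 0.05 in young cells, and Cycs at 0.06 ± 0.04, with a peak at ZT20.2. Sdhb had the largest amplitude of complex II in aged cells, 0.10 ± 0.06 (SE).

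**Figure D5:**
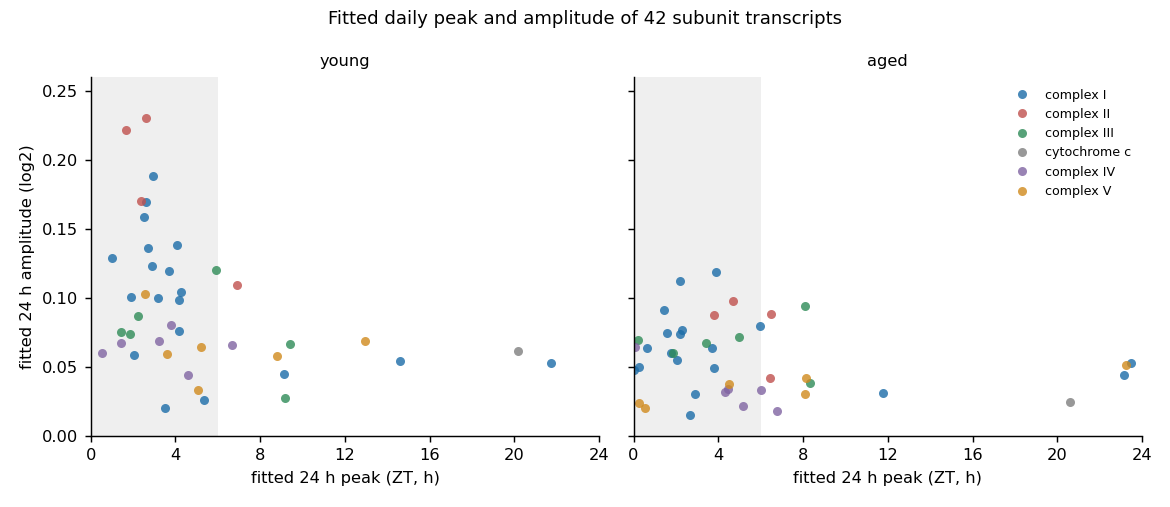
Peak time and amplitude of the fitted 24 h cosine for 42 subunit transcripts in young (left) and aged (right) cells, coloured by complex; the grey band covers ZT0 to ZT6. The band holds 32 transcripts in young and 30 in aged cells, and none of these fits passed the adjusted threshold.

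A 12 h pattern was measured as the mean of ZT8 and ZT20 minus the mean of ZT4 and ZT16. None passed in young cells (limma; 5 with an unadjusted p under 0.05), in aged cells (2) or in the difference of the ages (3), where 4.58%, 3.70% and 2.01% of all genes did. Uqcrfs1 came closest in young cells: it was 9.19, 8.81, 9.01 and 9.01 at ZT4 and 8.83, 9.05, 8.96 and 8.81 at ZT16, against 8.62, 9.02, 8.70 and 8.66 at ZT8 and 8.78, 8.72, 8.65 and 8.64 at ZT20. The contrast was −0.24 in young cells (adjusted p = 0.0501, limma) and −0.21 in aged cells (adjusted p = 0.0926). In young cells Uqcrfs1 passed, as 1 of 42, with cyclic loess, with averaged probe sets, with the dimmer 50% of genes left out, or without any 1 of 16 arrays. The window of Uqcrfs1 holds the cyclic AMP response element, 29 to 22 bases before the start, and its part in the 12 h contrast was not tested. In aged cells Ndufa10, outside the naming rule, had the smallest adjusted p, 0.0804 (limma), at −0.22. In aged cells 40 of 42 contrasts were below 0 (55.9% of all genes), with a median of −0.09, and in young cells 14 (57.9%), with a median of 0.04.

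Subunits outside the set of 44 were lowest at the same time in young cells. Of 13 other subunits of complex I, 13 were lowest at ZT16 in young cells, and of 15 other subunits of complexes III to V, 14 were (23.8% of all genes). With cyclic loess 26 of these 28 were (23.5% of all genes). The course in young cells passed for 4 of 13 and 4 of 15 (17.5% of all genes), among them Ndufa11 (adjusted p = 0.00906) and Cox6a1 (adjusted p = 0.0260, limma). In level, 11 of 13 and 14 of 15 estimates were below 0, and 2 of the 15 passed (18.6% of all genes): Atp5j2 and Cox6a1 fell by 0.11 and 0.10 log2 (adjusted p = 0.0426 and 0.0471, limma), while Ndufb11 stood at −0.10 (adjusted p = 0.0506).

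Of 5 isoforms of subunits made in muscle or in low oxygen, 2 were higher in aged cells (9.89% of all genes) and none was lower. Ndufa4l2, a paralog of Ndufa4 known for its induction in low oxygen, rose by 0.58 ± 0.08 log2 (SE), 1.497-fold (adjusted p = 4.58e-07, limma), and Cox7a1, a muscle isoform, rose by 0.24 ± 0.05 (SE; adjusted p = 0.000599) from a dim signal of mean 4.43. The course of Ndufa4l2 in young cells also passed (adjusted p = 0.00698), as did its 24 h fit (adjusted p = 0.0194, limma).

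Of the factors that assemble the complexes, 3 of 27 passed in level, 1 higher and 2 lower, where 18.6% of all genes passed. Tmem126b, of complex I assembly, fell by 0.38 ± 0.09 log2 (SE; adjusted p = 0.00109, limma) and Ttc19, of complex III, rose by 0.17 ± 0.05 (SE; adjusted p = 0.0237). Tmem70, of complex V and outside the naming rule, fell by 0.19. Of 12 regulators of mitochondrial biogenesis 5 passed against the same share, 1 higher and 4 lower, with Tfb2m, Polrmt and Sirt3, outside the naming rule, among those lower. Tfam, which packages mitochondrial DNA and helps start its transcription, rose by 0.24 ± 0.07 (SE, adjusted p = 0.00885, limma). Yy1, a transcription factor with many targets, fell by 0.28 ± 0.07 (SE, adjusted p = 0.00491, limma). The median over the 12 was −0.003. Yy1 was the gene of these lists named here whose course differed between the ages (adjusted p = 0.00968, limma), passing in aged (adjusted p = 0.00205) and not in young cells (adjusted p = 0.305).

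Of the genes that feed or protect the chain, 1 of 14, 2 of 13, 1 of 13 and 2 of 7 passed in level, where 18.6% of all genes did. Of 14 genes of pyruvate dehydrogenase and the TCA cycle 1 rose, Pdha1 by 0.17 ± 0.04 log2 (SE; adjusted p = 0.00240, limma), with Idh3b at −0.09 (adjusted p = 0.104). Of 13 glycolytic genes 2 rose and none fell, Pfkp by 0.20 ± 0.04 (SE; adjusted p = 0.000377, limma) and Pgk1 by 0.12 ± 0.04 (adjusted p = 0.0407). Among 13 carriers and import proteins Tomm22, a receptor of the outer membrane, fell by 0.24 ± 0.06 (SE; adjusted p = 0.00205, limma), and Tomm70a stood at 0.14 (adjusted p = 0.0960). Of 7 antioxidant genes Gsr rose by 0.24 ± 0.06 (SE; adjusted p = 0.00364, limma) and Sod2 fell by 0.11 ± 0.04 (adjusted p = 0.0400). Sod2, the superoxide dismutase of the matrix, also passed the 24 h fit at both ages, with 24 h amplitudes of 0.28 in young and 0.18 in aged cells and fitted peaks at ZT14.5 and ZT14.9 (adjusted p = 2.44e-05 and 0.0320, limma).

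Other probe sets of the same subunits did not always give the same value. Of 42 subunits 22 had more than 1 probe set, and of the 29 unused ones above the dim limit 23 had the sign of the one used. Averaging them changed the genes that passed in level to Sdha and Cycs, higher, and Cox5b and Atp5a1, lower, so that 4 passed and Ndufb7 did not. The course in young cells then passed for Ndufa1, Ndufb7, Ndufc1, Sdhb, Sdhc and Atp5j, and not for Ndufb8. For this course the unused probe set of Ndufb7 had an unadjusted p of 0.00201 and that of Ndufb8 of 0.0617 (limma). A second probe set of Cycs, with a mean of 8.88 against 10.3 for the one used, was higher in aged cells by 0.17 ± 0.04 (SE, unadjusted p = 0.000468, limma). A dimmer probe set of Cox5b, with a mean of 6.55 against 11.65 for the one used, was lower by 0.42 ± 0.10 (SE, unadjusted p = 9.72e-05, limma). The probe sets in use for Cycs and Cox5b differed by 0.01 and −0.03. Of the probe sets in use 25 carry a suffix that marks probes shared between transcripts, of the same gene or of other genes. By suffix they are 18 _a_at, 4 _s_at and 3 _x_at.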

How the data were processed

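RNA of 48 arrays (Affymetrix mouse, perfect-match probes) was amplified and labelled per the labels' protocols. The authors deposited log2 values per probe set, made with RMA per the submitters' processing notes; whether all arrays were normalised together is not given in the sources used here. RMA as usually run scales arrays to a common distribution, so a shift shared by most genes may be hidden. The file held 45141 probe sets, of which 28898 have 1 symbol in the platform annotation, 551 several and 15692 none; those with 1 symbol gave 17097 genes, each by its brightest probe set. The dimmest 25% were left out, leaving 12823.

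From these values limma 3.58.1 in R 4.3.3 fitted age means with a 24 h cosine per age (level and rhythm), and the 12 groups of age and time (course, single times and the 12 h contrast). P-values were adjusted by Benjamini-Hochberg across the 12823 genes and called under 0.05. The labels give 4 separate mice per group, and no pair of arrays was identical. The number of arrays limits the precision. The scripts were checked on simulated data.

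The members and the lists of other genes were chosen with earlier results of these data known. Named genes are those that passed a test, those with the largest level difference or amplitude of each complex, and at most 2 of each list by the p of level; others are named as such. Alternatives were other dim filters, probe set means, scalings, array weights, moderated variances with trend, a block by replicate number, time as a factor, a minimum fold and each array left out. The comparison of ZT4 with ZT16 and the counts of time points under other scalings were added after the data were seen. Replicate numbers were not treated as pairs of mice. Residuals of arrays with the same number correlated at −0.00074 on average, with a range of −0.461 to 0.486, and those with different numbers at 0.00091. Averages near 0 cannot exclude that some mice were paired. Promoter windows are from RefSeq, and figures were drawn with matplotlib 3.10.9.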

Additional observations from a re-analysis of the deposited data

Results flagged for a closer look

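In 12 of 252 groups of 4 mice looked at, 1 mouse lay farther from the other 3 than Dixon's 95% critical value allows, where chance flags about 1 in 20 groups. Aged mouse 4 at ZT8 was high in 5 of them: 9.93 for Ndufa4 (the others 9.24 to 9.30), 9.89 for Sdhb, 11.55 for Cox6c, and means of centred values of 0.178 for complex II and 0.0552 for complex V. Aged mouse 1 at ZT12, the array of lowest weight, was low for Ndufa4 at 9.54 (the others 10.05 to 10.13) and for Cox6c at 11.38.

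Ndufb7 stood at 8.92 in young mouse 1 at ZT16, against 8.58 to 8.63 in the others. Uqcrfs1 stood at 8.74 in aged mouse 4 at ZT0, and Cycs at 10.07 in young mouse 2 at ZT4. The mean of all subunits was 0.0425 in aged mouse 4 at ZT16, and that of complex III −0.124 in young mouse 3 at ZT12.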

How the results depend on the processing

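With single settings changed, the number of subunits that differed in level was 2 with no filter on dim genes, 2 with the dimmest 50% left out, 4 with probe sets averaged, 3 with array weights, 2 with trended and robust variances, 2 with time as a factor and 0 at a change of at least 1.2 times; it was 1 with the remaining settings, and 1 to 2 when any 1 array was left out. With array weights the counts were 12 for the 24 h fit and 22 for the course in young cells, 6 for the course in aged cells, 3, 2 and 3 for the 12 h contrast in young, in aged and between ages, and 3 at single times. More of all genes passed with array weights too. The shares were 23.7% in level and 18.1% for the 24 h fit in young cells. For the course they were 37.9% in young and 28.1% in aged cells. Over the changed settings 1109 to 3045 of all genes passed in level, against 2387 with none changed. For the 12 h contrast these numbers were 488 to 1407 in young cells, against 587. They were 421 to 1594 in aged cells, against 474, and 202 to 980 between ages, against 258. With probe sets averaged 1 subunit passed for the course in aged cells, 1 for the 12 h contrast in young cells and 2 at single times. The 12 h contrast in young cells also passed for 1 with the dimmest 50% left out and with cyclic loess. Without the 4 arrays of lowest weight 1 passed for the course and 1 for the 12 h contrast in aged cells and 1 at single times. The cause was not tested. The 24 h fit in aged cells, the difference of the fits and the difference of the courses gave 0 throughout (limma, adjusted). With no setting changed the unadjusted counts were 0 in each as well. Over the changed settings 159 to 602 of all genes passed for the 24 h fit in aged cells, against 174. For the difference of the fits 0 to 4 passed, against 0, and for the difference of the courses 303 to 1573, against 332.

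When any 1 array was left out, the course in young cells ran from 1 to 15 subunits (13.4% to 22.5% of all genes). The 24 h fit in young cells ran from 0 to 2 (4.37% to 9.26% of all genes). The 12 h contrast in young cells ran from 0 to 1, Uqcrfs1 passing without young mouse 2 or 3 at ZT0, 2 at ZT4, 2 at ZT8, 3 or 4 at ZT12 or 4 at ZT16, or without aged mouse 4 at ZT0, 4 at ZT4, 4 at ZT8, any of the 4 at ZT12, 1 at ZT16 or 3 at ZT20. That in aged cells ran from 0 to 1, Ndufa10 passing without young mouse 2 or 3 at ZT0. With a block by replicate number 7 subunits passed for the course in young cells and 1 for level, and no other count changed; 15 of 48 arrays correlated best with an array of their own number. The dimmest subunit had a mean log2 signal of 7.62, well above the dim limit of 3.96.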
